A study of Mus musculus with 6 samples.

Results

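The 6 genes described here were listed together as ileal bile acid uptake genes. *Slc10a2*, *Fabp6*, *Slc51a*, *Slc51b* and *Fgf15* belong to the ileal route of bile acid recovery, and *Osr2*, listed with them, encodes a zinc finger protein. All 6 were taken by symbol, and each was measured by 1 probe set of its own among 19938 genes with a single symbol. In mutant villi, *Fabp6* (14.6-fold), *Slc10a2* and *Osr2* (1.90-fold) rose, whereas *Slc51a*, *Slc51b* and *Fgf15* did not pass the test. The control signal of *Slc10a2* lay below the dim level, and its mutant mean lay 2.94-fold above that level. The mutant pups were *Trpm7* fl/fl;*Villin1-Cre*, and the control pups were *Trpm7* fl/fl littermates without the Cre transgene, 3 replicates of each at postnatal day 5 (P5). *Trpm7* encodes an ion channel fused to a kinase that conducts divalent cations, and the *Villin1* promoter drives Cre in enterocytes along the whole intestine. The labels give a C57BL/6 background and leave the sex unknown, whereas the methods give C57BL/6J for the Cre line and another strain for the floxed line. RNA came from villi detached mechanically from the whole intestine, so that its segments were not separated. Mutant pups fail to grow at this age, and loss of *Trpm7* in enterocytes and poor growth cannot be told apart here. The sources count 3 littermates of each genotype but do not say that each array held RNA of a single pup, and the p values measure the spread between these samples.

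Bile acids are made in the liver, released into the duodenum and taken back mainly in the distal ileum. There the apical sodium-dependent transporter encoded by *Slc10a2* carries them into the enterocyte, the cytosolic protein encoded by *Fabp6* binds them, and the heterodimer of the *Slc51a* and *Slc51b* products passes them to the portal blood. Inside the cell, bile acids activate the nuclear receptor FXR (*Nr1h4*), which induces *Fabp6*, *Slc51a*, *Slc51b* and the hormone gene *Fgf15*. FGF15 travels to the liver and represses bile acid synthesis. In rodents the uptake system is low in suckling pups and turns on around weaning. *Osr2* encodes a zinc finger protein of the odd-skipped family, known in mice for its part in palate development.

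Whole-series facts bear on these values as follows. The arrays had medians of 6.24 to 6.30 log2 units, and the median change over all genes was 0.005. *Trpm7* had 8.03, 7.79 and 7.88 log2 units in mutant villi, against 9.11, 8.96 and 9.03 in control villi, lower on every mutant array as labelled. Enterocyte markers were bright on every array (11.26 to 13.79), with list means of 12.58 to 12.73 in mutant and 12.19 to 12.24 in control villi, and 3 of 6 rose. Goblet cell markers fell in all 5 measured cases, with list means of 9.16 to 9.28 in mutant and 11.33 to 11.42 in control villi, and 3 of 4 neutrophil markers rose, with list means of 7.17 to 9.41 in mutant and 5.30 to 5.43 in control villi. Of 5 stromal markers 3 rose (*Dcn*, *Pdgfra* and *Vim*), with list means of 8.86 to 9.19 in mutant and 8.36 to 8.74 in control villi. Beside these marker counts, 9.39% of all genes rose and 10.1% fell. The arrays also differed in sex-linked transcripts. Mutant replicate 1 and control replicate 1 held *Xist* without Y-linked signal, and mutant replicates 2 and 3 held Y-linked signal without *Xist*. Control replicates 2 and 3 held both, so that these arrays need not each hold RNA of a single pup. They were also the most alike pair within a group, with r = 0.9969 against 0.993 to 0.9948 for the other pairs. In 1 alternative they were averaged. The calls of the 6 genes and of most related genes named below were also made on the 4 arrays with Y-linked signal alone. This choice was made after the data were seen. It does not match the groups for sex, because the control arrays in it held *Xist* (9.82 and 9.66 log2 units) and the mutant arrays did not (4.76 and 5.26). Sex and genotype cannot be told apart on these 4 arrays.

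RefSeq promoters of 4 of the 6 genes were at hand, on GRCm38.p6, and the 250 bases before each start are shown because *Fabp6* and *Slc10a2* rose while *Slc51a* and *Slc51b* did not pass the test. All 4 genes lie on the minus strand, and each run is written 5′ to 3′ along the gene. Capitals mark matches, on either strand, to the nuclear receptor hexamer AGGTCA, its inverted repeat AGGTCANTGACCT with at most 2 mismatches, the GATA motifs AGATAA and TGATAA, and the CDX motif TTTATNG. The mismatches were allowed after the sequences were read.
*Fabp6*, chr11:43601563-43601812: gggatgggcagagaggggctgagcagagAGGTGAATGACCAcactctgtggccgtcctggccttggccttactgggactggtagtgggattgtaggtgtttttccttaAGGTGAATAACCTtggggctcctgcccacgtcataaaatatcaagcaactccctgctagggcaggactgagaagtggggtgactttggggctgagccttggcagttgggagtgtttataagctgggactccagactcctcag
*Slc10a2*, chr8:5105288-5105537: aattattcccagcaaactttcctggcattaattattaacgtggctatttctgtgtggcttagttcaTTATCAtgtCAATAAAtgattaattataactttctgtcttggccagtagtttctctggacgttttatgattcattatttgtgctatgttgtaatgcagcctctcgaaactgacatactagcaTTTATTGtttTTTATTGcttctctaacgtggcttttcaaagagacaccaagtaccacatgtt
*Slc51a*, chr16:32487880-32488129: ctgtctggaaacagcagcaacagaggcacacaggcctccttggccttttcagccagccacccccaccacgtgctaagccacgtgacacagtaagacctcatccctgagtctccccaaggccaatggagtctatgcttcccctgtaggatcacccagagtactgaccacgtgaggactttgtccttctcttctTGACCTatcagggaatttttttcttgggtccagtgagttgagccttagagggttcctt
*Slc51b*, chr9:65422774-65423023: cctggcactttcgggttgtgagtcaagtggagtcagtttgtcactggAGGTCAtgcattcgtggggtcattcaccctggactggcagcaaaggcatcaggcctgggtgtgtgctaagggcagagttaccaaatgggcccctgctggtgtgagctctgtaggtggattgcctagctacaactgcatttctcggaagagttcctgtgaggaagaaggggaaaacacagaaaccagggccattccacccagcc

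The 2 promoters of the genes that rose most shared none of these motifs. *Fabp6* held 2 runs that differ from the inverted repeat by 2 bases each, AGGTGAATGACCA at -222 to -210 and AGGTGAATAACCT at -142 to -130, counted back from the base before the start as -1. This inverted repeat is the classical element bound by FXR with its partner RXR, and 0.959% of 32526 promoters held it within 2 mismatches. That allowance was set after the sequences were read, so this share does not measure how unusual the 2 runs of *Fabp6* are. The exact inverted repeat (0.00615% of promoters) and the direct repeat AGGTCANAGGTCA (0.0338%) were in none of the 4. *Slc10a2* held a GATA motif at -184 to -179 (16.5%) and 3 CDX motifs, at -175 to -169, -62 to -56 and -52 to -46 (9.74% with at least 1). The hexamer, in 14% of promoters, was found once in *Slc51a*, at -58 to -53, and once in *Slc51b*, at -203 to -198. These matches describe letters and say nothing of binding.

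*Slc10a2*, the transporter that brings bile acids into the enterocyte, had signals of 8.03, 6.45 and 6.11 log2 units in mutant villi, against 4.07, 4.43 and 4.16 in control villi. The groups did not overlap, and mutant replicate 1 stood highest. The mean was 6.86 ± 1.02 in mutant and 4.22 ± 0.19 in control villi (SD, n = 3 each). The difference was 2.64 (SE 0.43, 95% interval 1.64 to 3.64), or 6.25-fold (3.13 to 12.5), with an adjusted p of 0.00517 by limma, the linear model fitted over all probe sets. It ranked 31 among the 19938 genes ordered by rise. All 3 control values lay below the level exceeded by 5% of 1210 probe sets of olfactory and vomeronasal receptors, genes not expected in villi (a mean of 5.31), whereas all mutant values lay above it. The mutant mean lay 2.94-fold above that level, a figure without an interval to which mutant replicate 1 (8.03) added most. Mutant replicates 2 and 3, at 6.45 and 6.11, lay nearer to the level. In bulk tissue, more cells that hold a transcript and more of it per cell cannot be told apart.

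*Fabp6*, the binding protein of bile acids in the ileal cytosol, showed the largest change of the 6 genes. It had 9.93, 10.82 and 9.87 log2 units in mutant villi, against 7.82, 5.64 and 5.56 in control villi. Control replicate 1 stood more than 2 units above the other controls and still more than 2 units below every mutant array. Control replicates 2 and 3 lay just above the dim level of 5.31, so that the fold rests partly on signals near that level. With an offset of 32 on the linear scale the change was 3.36. The mean was 10.21 ± 0.53 in mutant and 6.34 ± 1.28 in control villi (SD, n = 3 each), a difference of 3.87 (SE 0.57, 95% interval 2.54 to 5.19). This 14.6-fold rise (5.82 to 36.5) had an adjusted p of 0.00335 by limma and ranked 5 of 19938. On the arrays with Y-linked signal alone it was 4.75 (adjusted p = 0.00212), and that of *Slc10a2* was 1.99 (adjusted p = 0.00351).

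Neither subunit of the basolateral exporter passed the test. *Slc51a* had 10.84, 10.81 and 11.03 log2 units in mutant villi, against 10.98, 10.95 and 10.90 in control villi. *Slc51b* had 11.53, 11.56 and 11.70 in mutant villi, against 11.52, 11.55 and 11.55 in control villi. The groups overlapped for both genes. The difference was -0.05 for *Slc51a* (95% interval -0.24 to 0.14, adjusted p = 0.745 by limma) and 0.06 for *Slc51b* (-0.12 to 0.23, adjusted p = 0.677), so that the intervals held folds of 0.845 to 1.10 and 0.922 to 1.17. Both subunits were bright on all arrays, above 10.8 log2 units.

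Uptake and export genes were also set against each other within each array. The change of *Fabp6* exceeded that of *Slc51a* by 3.92 and that of *Slc51b* by 3.81 log2 units. The change of *Slc10a2* exceeded that of *Slc51a* by 2.69 and that of *Slc51b* by 2.59 as measured. With the control signal of *Slc10a2* set to the dim level of 5.31, the excess was 1.6 and 1.5. In all 4 comparisons the 3 mutant arrays lay above the 3 control arrays, and the exact permutation p was 0.1, two-sided, the smallest that 3 against 3 arrays allow. These 4 pairs were not planned. Because *Slc51a* and *Slc51b* changed by only -0.05 and 0.06, the 4 differences largely restate the rises of *Fabp6* and *Slc10a2*.

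*Fgf15*, the hormone gene induced by FXR in the ileum, had 6.50, 7.36 and 6.99 log2 units in mutant villi, against 6.94, 7.45 and 7.73 in control villi. The groups overlapped, with the lowest value in mutant replicate 1. The difference was -0.42 (95% interval -1.0 to 0.15), with an adjusted p of 0.313 by limma. A fall of up to 2-fold therefore lay within the interval, while a rise like that of *Fabp6* or *Slc10a2* lay outside it.

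*Osr2* had 8.97, 8.60 and 8.55 log2 units in mutant villi, against 8.14, 7.63 and 7.57 in control villi. The groups did not overlap, and replicate 1 was the highest of each. The mean was 8.71 ± 0.23 in mutant and 7.78 ± 0.31 in control villi (SD, n = 3 each). The difference of 0.93 (SE 0.17, 95% interval 0.53 to 1.32) was a 1.90-fold rise with an adjusted p of 0.00903 by limma, and on the arrays with Y-linked signal alone it was 0.98 (adjusted p = 0.00443).

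**Figure D1:**
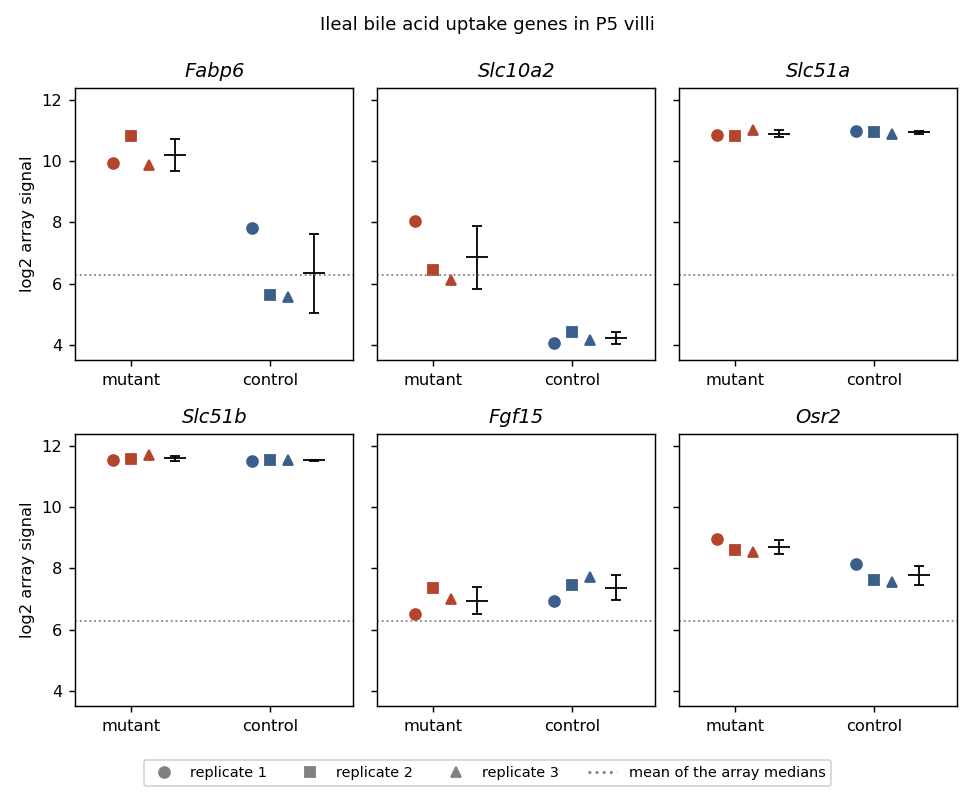
Log2 array signal (vertical axis) of the 6 genes in mutant (left, red) and control (right, blue) villi at P5, with a marker for each replicate, the mean ± SD beside each group and a dotted line at the mean of the array medians. The mutant arrays lie above all control arrays for *Fabp6*, *Slc10a2* and *Osr2*, and the groups overlap for *Slc51a*, *Slc51b* and *Fgf15*.

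In all, 3 of the 6 genes rose and 0 fell, where 9.39% of all genes rose and 10.1% fell at this threshold. A rise of at least 2-fold was called for 1.70% of genes, and *Fabp6* and *Slc10a2* were among them. Every mutant value lay above every control value for the 3 genes that rose, as for 18.6% of all genes. These 3 calls held under every alternative that gave a value, with changes of 3.36 to 4.75 for *Fabp6*, 1.59 to 3.02 for *Slc10a2* and 0.80 to 1.11 for *Osr2*. No alternative called *Slc51a*, *Slc51b* or *Fgf15*. Each of the 3 rises went with the goblet, neutrophil, stromal and enterocyte marker shifts given above, and the part of these in the result was not tested.

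**Figure D2:**
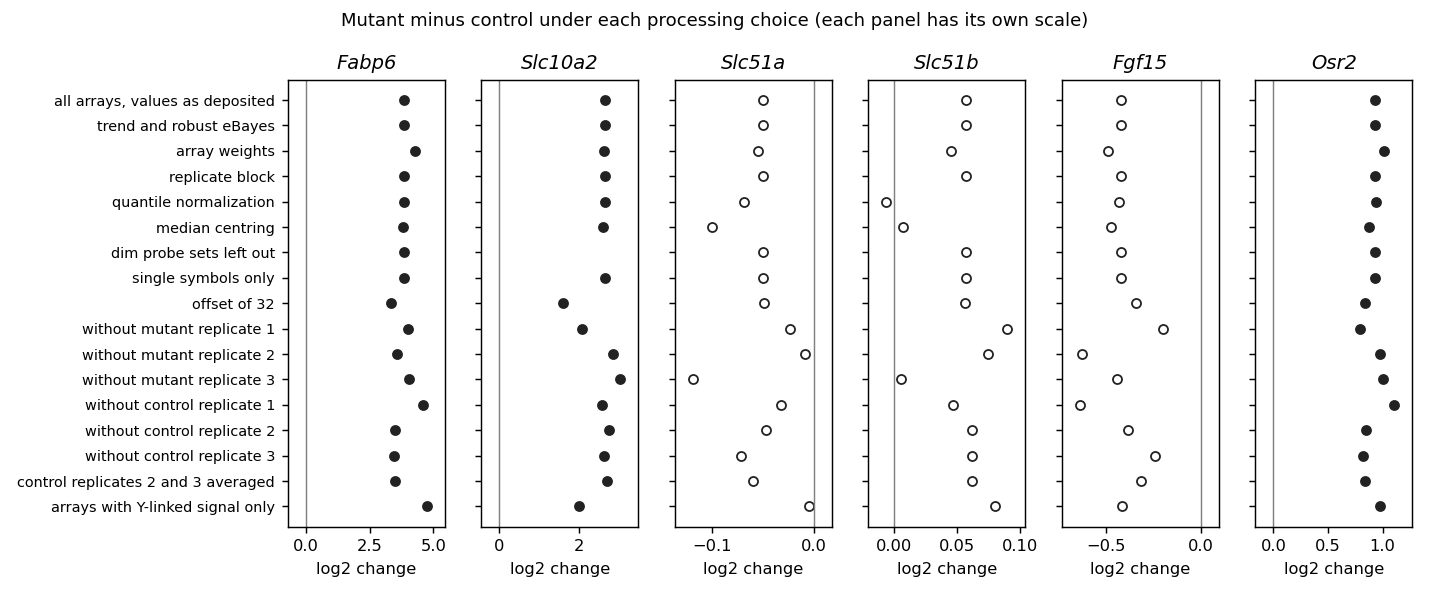
Log2 change, mutant minus control (horizontal axis, a scale of its own in each panel), of the 6 genes under each processing choice (rows), filled where the adjusted p was 0.05 or less and open where it was not. The changes of *Fabp6*, *Slc10a2* and *Osr2* stay right of 0 and filled in every row that holds a value, and *Slc10a2* has no value once dim probe sets are left out.

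The 6 genes did not vary as a block over the 6 arrays, which share the group difference and its replicates. Pearson's r of log2 values was 0.942 for *Fabp6* and *Osr2*, 0.908 for *Slc10a2* and *Osr2*, and 0.805 for *Fabp6* and *Slc10a2*. With the group means removed, *Fabp6* and *Osr2* still had r = 0.664, while *Fabp6* and *Slc10a2* had r = -0.223. Control replicate 1 was high for *Fabp6* and *Osr2* among controls, and mutant replicate 1 was high for *Slc10a2* and *Osr2* among mutants. The exporter subunits deviated together (r = 0.844), with mutant replicate 3 highest for both. *Fgf15* and *Osr2* deviated in opposite ways (r = -0.899).

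The genes most like each member were sought among 989 genes whose SD over the 6 arrays was at least 0.5. *Fabp6* was followed most closely by *Gas2l3* (r = 0.995), *H2-Q10* (0.988) and *Rnf157* (0.987), and *Slc10a2* by *Ndrg1* (0.995), *Ly6f* (0.993) and *Clca3a1* (0.990). *Osr2* was followed by *Stom* (0.995), *Igf2bp1* (0.990) and *Ampd3* (0.989). The nearest genes of the exporter subunits were largely genes known from the liver, *Pzp* (0.911), *Apcs* (0.877) and *Ambp* (0.875) for *Slc51a*, and *Hc* (0.998), *Cyp2e1* (0.997) and *Rbp4* (0.995) for *Slc51b*. *Slc51a* itself ranged only from 10.81 to 11.03 log2 units and *Slc51b* from 11.52 to 11.70. Genes as flat as these were left out by the SD rule, so that only more variable genes could be named. *Hc*, which encodes complement C5, had 4.69, 4.96 and 6.34 log2 units in mutant villi, against 4.52, 4.77 and 4.89 in control villi, so that mutant replicate 3 stood apart as it did for *Slc51b*. *Alb*, the liver marker, likewise had 5.55, 8.57 and 12.13 in mutant villi, against 5.69, 6.99 and 7.07 in control villi, and its part in the small differences of *Slc51a* and *Slc51b* was not tested. *Fgf15* was followed by *Olfm4* (0.909), a marker of crypt cells in humans, *Snord33* (0.889) and *Tmprss15* (0.889), the enteropeptidase gene. With the group means removed, the nearest were *Abi2* (0.986) for *Fabp6*, *Tff1* (0.991) for *Slc10a2*, *Cmtm8* (0.994) for *Slc51a*, *Dock8* (0.998) for *Slc51b*, *Tac1* (0.997) for *Fgf15* and *Lhfpl2* (0.986) for *Osr2*.

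Among genes that sense bile acids or regulate the ileal route, *Nr0b2*, *Nr1h3* and *Rxra* fell. Of 12 receptors and regulators, 0 rose, 3 fell and 9 did not pass the test, where 9.39% of all genes rose and 10.1% fell, with a median change of -0.12. *Nr1h4* itself, named after its values were seen, had 10.15, 9.63 and 10.06 log2 units in mutant villi, against 10.12, 10.17 and 10.19 in control villi, a difference of -0.21 (95% interval -0.52 to 0.09, adjusted p = 0.337 by limma). *Nr0b2*, which encodes the corepressor SHP and is induced by FXR as *Fabp6* is, had 7.63, 8.34 and 8.22 in mutant villi, against 9.04, 9.01 and 8.96 in control villi. Its change of -0.94 had an adjusted p of 0.008 by limma and thus ran against that of *Fabp6*. *Nr1h3*, the oxysterol receptor LXR alpha, fell by 0.56 (adjusted p = 0.00578). *Rxra*, the partner of FXR, fell by 0.44 (adjusted p = 0.0202), a call lost without mutant replicate 1 or 2 or control replicate 1 or 2 (adjusted p of 0.0568 to 0.0754).

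Transcription factors that set position along the intestine mostly fell. Of 10 measured, 1 rose, 6 fell and 3 did not pass the test, where 9.39% of all genes rose and 10.1% fell, with a median change of -0.35. *Onecut2*, a factor of the proximal small intestine, fell by 0.88 (adjusted p = 9.28e-04 by limma), and *Gata5* fell by 0.64 (adjusted p = 0.00705). *Cdx2* fell as well, by 0.40 (adjusted p = 0.0206), and *Gata6* by 0.36 (adjusted p = 0.0122). Both were named after their values were seen and were not followed under the alternatives. *Pdx1*, the duodenal factor, fell by 0.88 (adjusted p = 0.0191), a call lost without control replicate 2 or 3 (adjusted p of 0.0667 and 0.0687). *Gata4*, which in mice keeps ileal genes such as *Fabp6* and *Slc10a2* off in the jejunum, was chosen after its values were seen: it had 10.21, 10.20 and 10.06 log2 units in mutant villi, against 10.51, 10.51 and 10.48 in control villi (adjusted p = 0.0169), a call lost without control replicate 2 (adjusted p = 0.0603). *Osr1*, the paralogue of *Osr2*, rose by 0.41 (adjusted p = 0.0349), but the call was lost with any replicate other than mutant replicate 3 left out (adjusted p of 0.0548 to 0.11) and under quantile normalization (0.0526) and median centring (0.0555).

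The partners of FGF15 changed in both directions. Of 9 genes, 2 rose, 2 fell and 5 did not pass the test, with a median change of 0.003. Among all genes 9.39% rose and 10.1% fell. *Malrd1*, whose product raises FGF15 output from mouse enterocytes, had 8.24, 8.46 and 8.20 log2 units in mutant villi, against 6.88, 7.51 and 7.72 in control villi, although *Fgf15* did not pass the test. The rise of *Malrd1* was 0.93 (adjusted p = 0.0164 by limma), and the call was lost without mutant replicate 2 (adjusted p = 0.0667). *Fgfr4*, the receptor of FGF15 in the liver, rose by 0.53 (adjusted p = 0.00604). Its coreceptor *Klb* fell by 0.67 (adjusted p = 0.0108), and *Fgfr2* fell by 0.75 (adjusted p = 0.00496), but the fall of *Klb* missed the threshold on the arrays with Y-linked signal alone (adjusted p = 0.0614). The mutant values of *Klb* (5.53, 5.14 and 5.62 log2 units) lay near the dim level, and *Klb* gave no value once dim probe sets were left out.

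Other carriers of bile acids changed in both directions. Of 10 genes, 3 rose, 1 fell and 6 did not pass the test, with a median change of 0.20. The shares over all genes were 9.39% higher and 10.1% lower. *Abcb11*, the bile salt export pump of the hepatocyte, had 7.06, 6.64 and 7.71 log2 units in mutant villi, against 9.76, 9.96 and 9.99 in control villi, a 6.80-fold fall (adjusted p = 2.8e-04 by limma). *Abcc2*, an apical exporter of conjugates, had 12.73, 12.52 and 12.81 in mutant villi, against 11.86, 11.75 and 11.73 in control villi, a rise of 0.91 (adjusted p = 6.78e-04). The basolateral exporter *Abcc3* rose by 1.09 (adjusted p = 0.037) and *Abcc4* by 0.39 (adjusted p = 0.0359). With any replicate other than mutant replicate 3 left out, *Abcc3* had adjusted p of 0.0787 to 0.128 and *Abcc4* of 0.0542 to 0.117. With all arrays kept, *Abcc3* was also lost with trend and robust eBayes (adjusted p = 0.0762) and with an offset of 32 on the linear scale (0.0648), and *Abcc4* under median centring (0.0529).

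**Figure D3:**
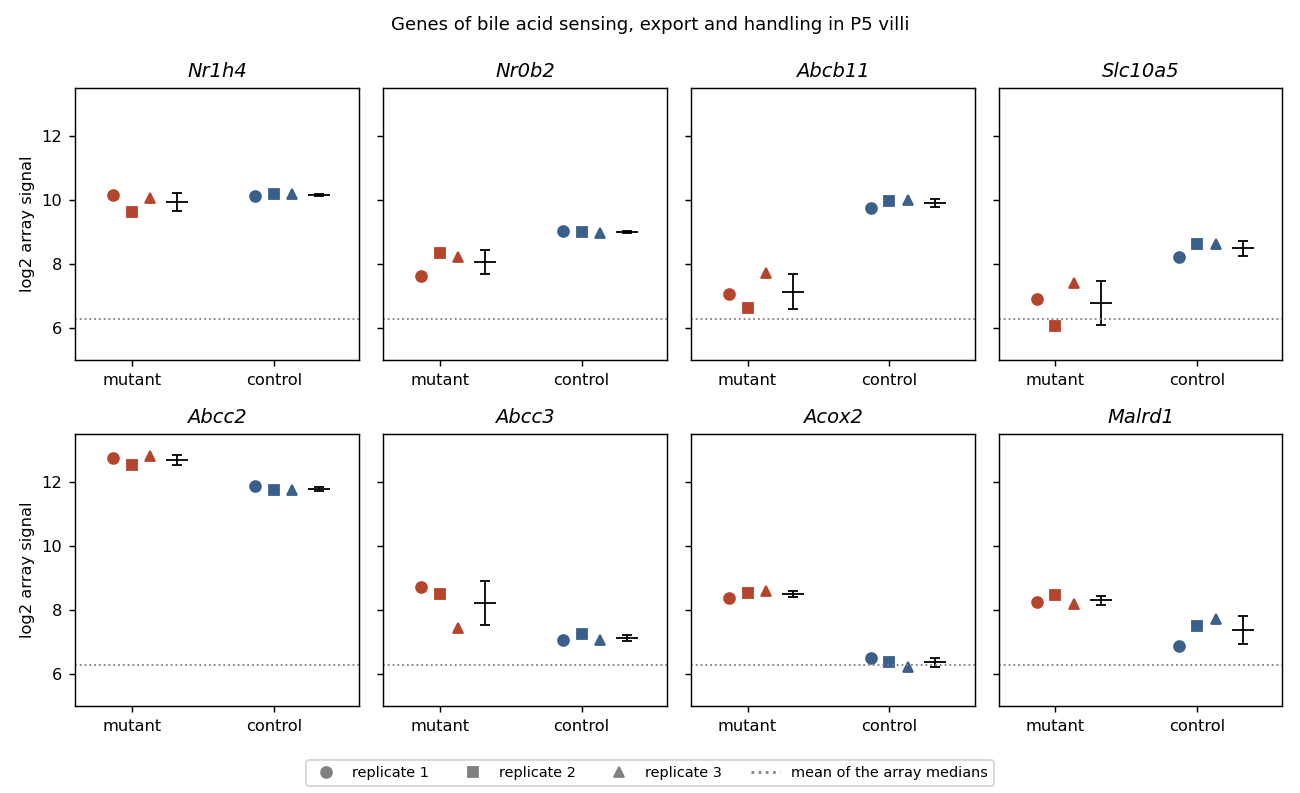
Log2 array signal (vertical axis) of 8 genes of bile acid sensing, export and handling in mutant (left, red) and control (right, blue) villi at P5, with a marker for each replicate, the mean ± SD beside each group and a dotted line at the mean of the array medians. *Nr0b2*, *Abcb11* and *Slc10a5* lie lower on all mutant arrays, *Abcc2*, *Abcc3*, *Acox2* and *Malrd1* lie higher, and *Nr1h4* overlaps.

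Within the 2 protein families of the uptake genes, the only relative called higher was *Fabp4*. Of 8 other fatty acid binding proteins, 1 rose and 2 fell, where 9.39% of all genes rose and 10.1% fell. *Fabp4*, the adipocyte form, rose by 0.90 (adjusted p = 0.00159 by limma), *Fabp1*, the liver form that enterocytes also make, fell by 0.59 (adjusted p = 0.00257), and *Fabp7*, the brain form, fell by 0.36 (adjusted p = 0.0498), with its call lost whichever replicate was left out (adjusted p of 0.0534 to 0.145). Of 5 other measured members of the SLC10 family, 0 rose and 1 fell, while *Slc10a3* had no probe set of its own. *Slc10a5*, a carrier without a settled substrate, had 6.91, 6.06 and 7.41 log2 units in mutant villi, against 8.23, 8.63 and 8.62 in control villi, a change of -1.70 (adjusted p = 0.00745) that just missed the threshold on the arrays with Y-linked signal alone (adjusted p = 0.0504). *Slc10a1*, the bile acid uptake carrier of hepatocytes named here after its values were seen, had 4.37, 4.55 and 5.12 in mutant villi, against 4.54, 4.55 and 4.42 in control villi, and was not called (adjusted p = 0.566).

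Among enzymes of bile acid synthesis and conjugation, which work mainly in the liver, *Acox2* changed most. Of 12 genes, 1 rose, 1 fell and 10 did not pass the test, shares near those over all genes (9.39% and 10.1%), with a median change of 0.06. *Acox2*, the peroxisomal oxidase that shortens the side chain of bile acid precursors, had 8.38, 8.54 and 8.58 log2 units in mutant villi, against 6.51, 6.39 and 6.22 in control villi, a 4.37-fold rise (adjusted p = 2.77e-05 by limma). *Amacr*, the racemase that acts before it, fell by 0.43 (adjusted p = 0.029), and the call was lost without mutant replicate 2 or 3 or control replicate 1 or 2 (adjusted p of 0.0641 to 0.102). *Cyp7a1*, the rate-limiting enzyme, named after its values were seen, lay between 2.85 and 3.11 log2 units on all 6 arrays.

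Other genes of the distal small intestine were looked at beside *Fabp6*, *Slc10a2* and *Osr2*. Of 7 genes, 1 rose and 6 did not pass the test, where 9.39% of all genes rose, with a median change of 0.08. *Cubn* and *Amn*, the ileal receptor of vitamin B12 with its intrinsic factor, both named after their values were seen, changed by 0.19 each (95% intervals -0.26 to 0.63 and -0.08 to 0.46). *Gcg*, the proglucagon gene of enteroendocrine L cells, rose by 1.19 (adjusted p = 0.0203 by limma), a call lost without mutant replicate 2 or 3 or control replicate 1 (adjusted p of 0.0625 to 0.0696). Of 10 genes of proximal enterocytes, 0 rose and 4 fell, with a median of -0.13: *Slc11a2*, the iron importer, by -1.44 (adjusted p = 0.00137), *Cybrd1*, a ferric reductase, by -1.06 (adjusted p = 0.0438), *Lct*, lactase, by -0.94 (adjusted p = 0.00361), and *Fabp1* as given above. The call of *Cybrd1* was lost with any replicate other than mutant replicate 1 left out (adjusted p of 0.0868 to 0.138), with trend and robust eBayes (0.104) and with an offset of 32 (0.0686). Of 6 genes of colonic surface cells, 0 rose and 3 fell, with a median of -0.50, among them *Aqp8*, a water channel (-4.71), *Slc37a2*, a sugar phosphate exchanger (-1.18), and *Slc26a3*, the chloride exchanger (-0.64), with adjusted p of 4.7e-06 to 0.0126. Over all 86 measured genes of these lists, 9 rose (10.5%, against 9.39% of all genes), 22 fell (25.6%, against 10.1%) and 55 did not pass the test. The lists were chosen with earlier results of these data known. Their genes were also brighter, with array means of 8.02 to 8.18 log2 units against 6.7 to 6.71 over all genes. The shares are therefore a description and not a like comparison. On the arrays with Y-linked signal alone, *Rxra*, *Gata4*, *Osr1*, *Abcc3*, *Abcc4*, *Amacr* and *Fabp7* also missed the threshold, as *Klb* and *Slc10a5* did. With control replicates 2 and 3 averaged, *Rxra*, *Pdx1*, *Osr1*, *Abcc3*, *Abcc4*, *Cybrd1* and *Fabp7* missed the threshold as well. Their adjusted p by limma was 0.0514 to 0.131.

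**Figure D4:**
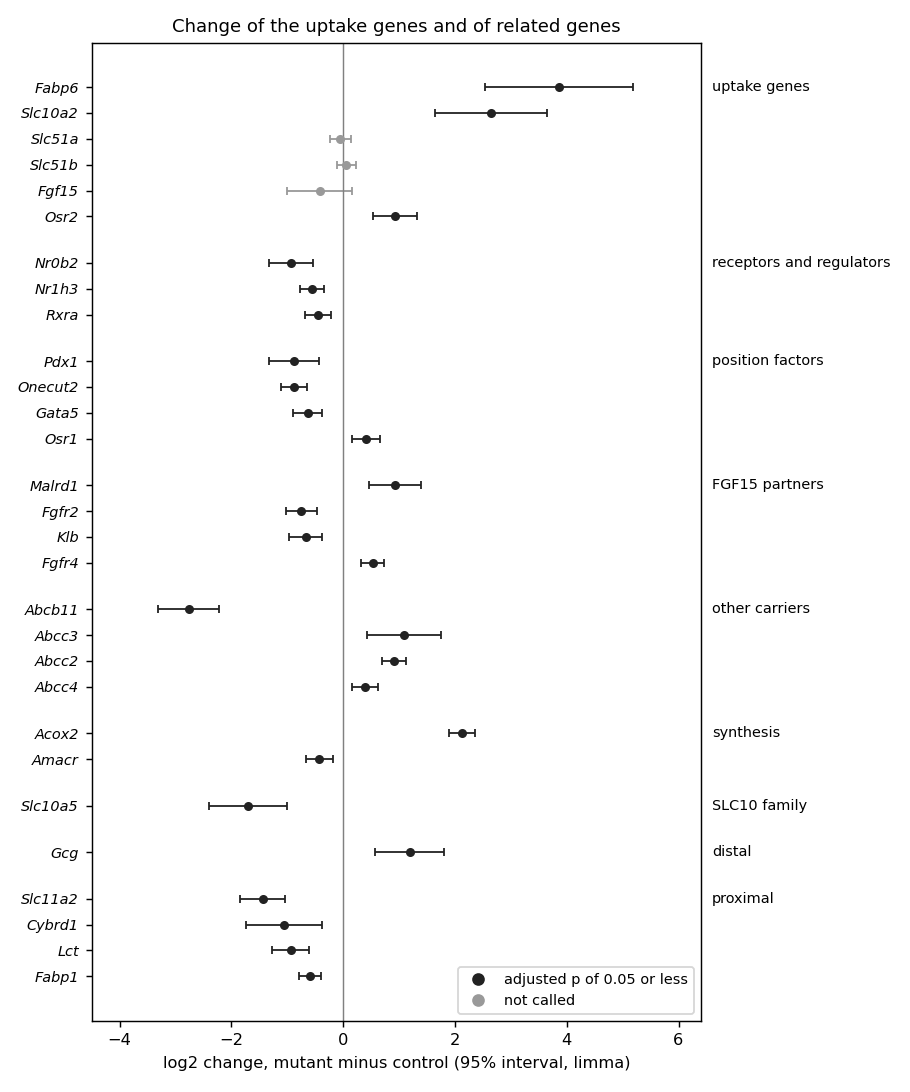
Log2 change, mutant minus control, with the 95% interval (horizontal axis) of the 6 genes and of called genes of 8 related lists (rows, grouped at the right). Each related list is shown by at most the 4 called genes that changed most. Points are black where the adjusted p was 0.05 or less and grey where it was not. *Fabp6* and *Slc10a2* lie farthest right, at 3.87 and 2.64, and *Abcb11* farthest left, at -2.77.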

How the data were processed

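Villi of 3 mutant and 3 control replicates were profiled on 1 Affymetrix whole-transcript array each. The authors deposited log2 signals per probe set, rounded to 0.01, with a background correction, summarisation and normalization not given in the sources used here. Of 30177 probe sets, 21789 had 1 symbol in the platform annotation, 1621 had several and 6767 were not listed, and 21698 were updated through Entrez IDs in a RefSeq table (GRCm38.p6). For each gene the probe set of highest mean signal was used. Mutant minus control was fitted in R 4.3.3 with limma 3.58.1 (lmFit and eBayes, prior of 3.92 degrees of freedom) on the deposited values, adjusted by Benjamini and Hochberg's method across the whole array, and called at an adjusted p of 0.05 or less. Lists were summarised by counts and medians in Python 3.11.15, and the fit was tested on simulated data. The number of arrays limits the precision. Fold changes are 2 to the power of the log2 difference.

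The members and lists were chosen with earlier results of these data known. Named genes were the 6 members, from each list the 4 called genes that changed most, or the 2 that changed most where none was called, the 3 genes most like each member, and *Trpm7*. Of the genes nearest with group means removed, the first of each member is printed. Alternatives were trend and robust eBayes, array weights, a replicate block, quantile normalization, median centring, a filter on dim probe sets, the probe set with the lowest mean, single symbols only, an offset of 32, control replicates 2 and 3 averaged, leaving out each replicate, and the arrays with Y-linked signal only.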

Additional observations from a re-analysis of the deposited data

How the results depend on the processing

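The calls of *Fabp6*, *Slc10a2* and *Osr2* kept their direction and side of the threshold under every alternative that gave a value. *Slc51b* changed sign under quantile normalization, at -0.0064 (adjusted p = 0.969), and passed no threshold anywhere. *Slc10a2* gave no value once dim probe sets were left out, and no member had another probe set. Leaving out 1 replicate gave 1561 to 2037 probe sets higher and 1688 to 2348 lower, against 2427 and 2661 with all arrays, and 5 to 11 listed genes higher and 14 to 19 lower, against 9 and 22. The lowest probe set counts came without mutant replicate 2, the 5 without control replicate 1 and the 14 without control replicate 2. On the arrays with Y-linked signal, 1497 probe sets were higher and 1604 lower, with 14 listed genes lower. Median centring gave 1996 higher and 3456 lower, or 36.6% higher against 47.7%. Same-numbered replicates deviated together with r of 0.174, 0.039 and 0.119, so the numbers were not taken as pairs. With a replicate block, 2381 probe sets were higher and 2576 lower, no member's call changed (*Fgf15* had an adjusted p of 0.0817), and *Osr1* (0.0607) and *Fabp7* (0.0774) lost theirs. Signals near the dim level limit the folds of *Slc10a2*, *Fabp6* and *Klb*.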
